A study of Mus musculus with 8 samples.

Results

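The genes described here are 10 that encode proteins of iron transport and storage, Trf, Tfrc, Slc11a2, Fth1, Ftl1, Slc40a1, Cp, Hmox1, Aco1 and Ireb2, among the 55471 genes of a count table of SV-LECs. They were found by symbol, 1 row each. The list was chosen by pathway and with the difference in counts between untreated and TGFβ1-treated SV-LECs in view, that of Trf above all, so the members' values in this contrast are given as a description. Where the fit over all genes called a member, this is counted and supports nothing. SV-LECs are mouse lymphatic endothelial cells immortalized with SV40 and, per the study's methods, grown in high-glucose DMEM with serum. The 2 groups were untreated SV-LECs and SV-LECs exposed to TGFβ1 at 10 ng/ml during 72 h, with 4 libraries each. The study looked for factors that TGFβ1 induces in these cells. The libraries of a group are called technical replicates in the study's methods. All come from a single cell line, so errors and p-values cover the spread between libraries and not between independent experiments.

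Cells take up iron bound to transferrin through the transferrin receptor, reduce it in endosomes, release it to the cytosol, store the excess in ferritin and export it through ferroportin. The iron regulatory proteins IRP1 and IRP2 bind hairpins called iron-responsive elements (IREs) when iron is scarce. Binding in a 5′ untranslated region (UTR) blocks translation, and binding in a 3′ UTR protects the messenger from decay, so part of this control acts on protein and is not measured by counting RNA.

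Elements found by their sequence pattern are shown because they separate the members with a 5′ element from those with 3′ elements. Each run is 29 bases of the transcript strand in GRCm38, 5′ to 3′, with the loop in capitals. Elements were searched as C, 5 bases, the loop CAGTGN and 5 bases that pair with the first 5, G with T allowed. Fth1 at chr19:9982732-9982760 (+), Ftl1 at chr7:45459779-45459807 (-) and Slc40a1 at chr1:45925465-45925493 (-) have 1 each in the 5′ UTR, with all 5 pairs.
Fth1: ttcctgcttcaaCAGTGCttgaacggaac
Ftl1: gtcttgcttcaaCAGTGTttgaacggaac
Slc40a1: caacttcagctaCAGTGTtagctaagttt

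The search found 4 in the 3′ UTR of Tfrc, all with 5 pairs, on the plus strand at chr16:32631219-32631247, chr16:32631598-32631626, chr16:32631663-32631691 and chr16:32631710-32631738. An element with another loop than CAGTGN would be missed, so these may not be all. Slc11a2 has 1 in the 3′ UTR, at chr15:100395153-100395181 (-), with 4 of 5 pairs.
Tfrc, the first: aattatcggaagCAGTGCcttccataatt
Tfrc, the second: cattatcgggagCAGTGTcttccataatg
Tfrc, the third: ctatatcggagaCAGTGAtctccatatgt
Tfrc, the last: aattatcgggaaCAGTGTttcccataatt
Slc11a2: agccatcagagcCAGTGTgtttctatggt

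A pattern with 5 pairs occurred in the 5′ UTR of 28 of 20890 protein-coding genes (0.134%) and in the 3′ UTR of 127 of 21691 (0.585%). With at least 4 pairs, 858 genes (3.96%) had it in the 3′ UTR. No pattern with at least 4 pairs was found in the protein-coding transcripts of Trf, Cp, Hmox1, Aco1 and Ireb2. Epas1, listed below among messengers known for an IRE, had no match either, so the search misses some elements. A match is a description of sequence and was not tested for binding.

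Total counts were between 18952504 and 26386941 per library. Values are CPM, the counts scaled to one common library size after TMM normalization, and 3 counts corresponded to 0.113 to 0.162 CPM. Once low counts were filtered out, edgeR's likelihood ratio test was run on 13818 genes. Calls were made where the false discovery rate (FDR), adjusted by Benjamini-Hochberg, was under 0.05. Of all genes tested, 75.6% were called, 37.6% higher and 38.0% lower after TGFβ1, and in 69.8% the groups did not overlap. All 10 members passed the filter. TGFβ1-treated libraries were called higher in 4 members and lower in 5, and the groups did not overlap in 8. These counts restate what was known when the list was chosen. The median log2 fold change was -0.09 over the members and -0.01 over all genes tested, and the median absolute change was 0.33 against 0.39.

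The labelled cell type was checked against markers. Of 9 lymphatic endothelial markers, Prox1, Lyve1, Ccl21a and Reln had at most 3 counts in every library, and of 9 endothelial markers Cdh5, Tie1 and Emcn did. The summed level of the lymphatic list was between 413 and 448 CPM in untreated and between 426 and 440.4 CPM in treated libraries. The endothelial list summed to 19.5 to 22.2 and 29.8 to 33.2 CPM. Pdpn made up most of the lymphatic sum, with means of 342 CPM without and 313 CPM with TGFβ1. Nrp2 had means of 66.4 and 88.3 CPM and Flt4 of 21.6 and 29.3 CPM. Of the endothelial list, Kdr had 11.6 and 22.1 CPM, Egfl7 5.83 and 4.79 CPM and Esam 2.85 and 3.77 CPM. The rest of both lists was low, with 1 to 5 counts per library for Pecam1, 0 to 5 for Sox18 and 8 to 18 for Tek. Vwf had 0 counts in untreated and 2 to 10 in treated libraries. Mmrn1, of the lymphatic list, went the other way, with 9 to 15 counts without and 0 to 2 with TGFβ1. A list of 7 fibroblast markers summed to 6108 to 8100.0 and 7245 to 8477 CPM, mostly from 2 collagens that differed in opposite directions. Col1a1 had means of 3459 and 6057 CPM and Col3a1 of 3408 and 1805 CPM. Dcn was 3.76-fold and Pdgfra 2.77-fold lower with TGFβ1. Pdgfrb was 1.55-fold higher, and Fap, with means of only 0.339 and 0.858 CPM, was 2.58-fold higher. Lum had too few counts for the test. The part of these markers in the members' values was not tested. Several defining markers of the labelled cell type were thus at or near 0 counts in both groups, while others, such as Pdpn, Nrp2, Flt4 and Kdr, were expressed.

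Trf encodes transferrin, the carrier of iron in plasma, and lies on chromosome 9 from 103204001 to 103230444 on the minus strand. The untreated libraries 1 to 4 had 75.2, 76.4, 71.8 and 78.0 CPM, and the TGFβ1-treated libraries 1.89, 1.36, 2.02 and 1.67 CPM. All untreated libraries lay far above all treated ones, with 1538 to 2034 counts against 28 to 43. Trf was 75.3 ± 2.61 CPM without and 1.74 ± 0.287 CPM with TGFβ1 (SD, n = 4 each), which is 43.5-fold lower, with a log2 fold change of -5.44 (SE 0.128). It had the 4th lowest log2 fold change of the 13818 genes. In RNA from whole cultures, fewer expressing cells and less RNA per cell cannot be told apart.

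**Figure D1:**
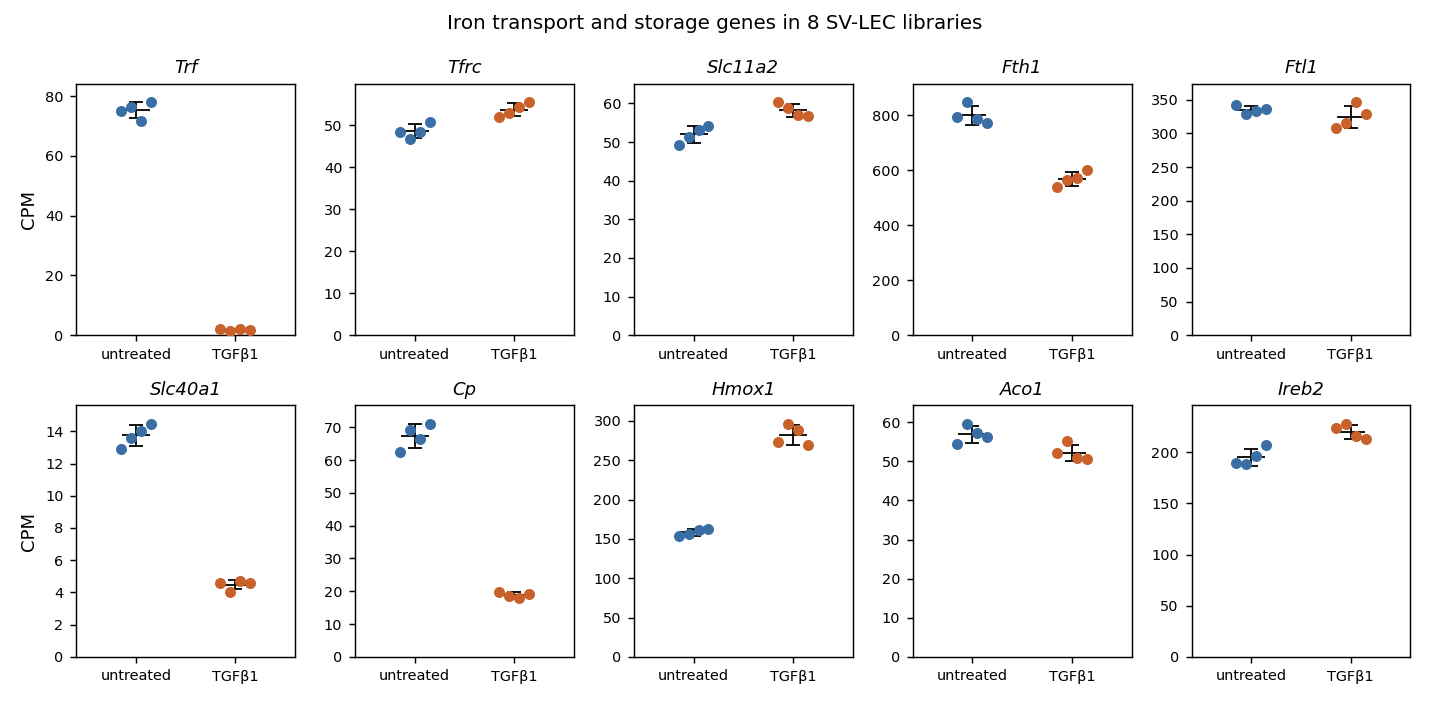
CPM of the 10 genes in each library (points) with the mean and SD of 4 libraries (black), each panel on its own linear axis from 0. Trf, Slc40a1 and Cp were low in all 4 TGFβ1-treated libraries and Hmox1 was high, while the points of Ftl1 and Aco1 overlap between the groups.

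Part of the Trf sequence is also annotated to another gene. The exons of Gm20425, a transcript that runs from Trf into the neighbour Srprb on the same strand (chr9:103190208-103230307), cover 63.5% of the 3320 exon bases of Trf, as the map of the locus shows. Gm20425 had no row under its symbol or identifier in the table used here, and its level was not analysed here. Srprb, which shares no exon base with Trf, had 1800 to 2726 counts per library.

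**Figure D2:**
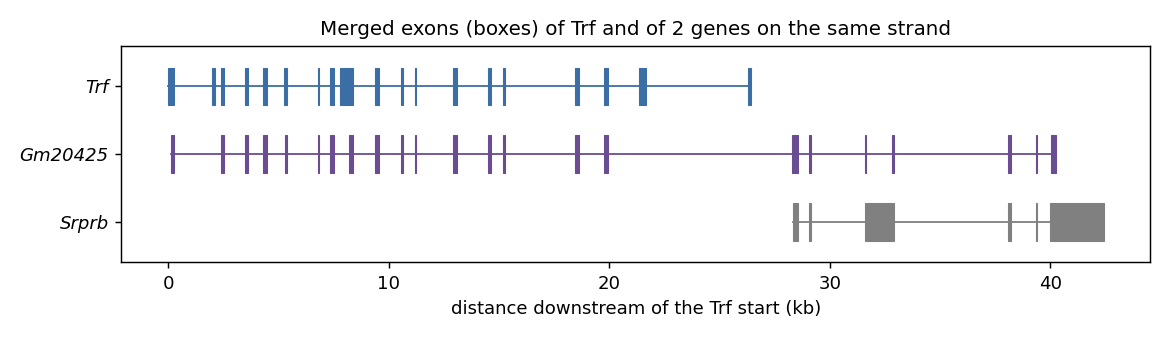
Merged exons (boxes) of Trf, Gm20425 and Srprb along the distance from the Trf start in kb, all read from left to right. Gm20425 has exons in both neighbours, and 69.6% of its exon bases lie in exons of Trf and 29.3% in those of Srprb.

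Hepatocytes are the main source of plasma transferrin and ceruloplasmin. Of 8 hepatocyte markers, 6 had at most 3 counts in every library, and the list summed to 0.175 to 0.451 CPM in untreated and 0.649 to 0.876 CPM in treated libraries. The other 2 were Apoa2, with 4 to 10 counts without and 11 to 16 with TGFβ1, and Alb, with 0 without and 0 to 4 with it. Hepatocyte markers were near 0 in both groups, and their part in the values of Trf was not tested.

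Tfrc and Slc11a2, the members that act in uptake, differed little. Tfrc, the receptor for iron-loaded transferrin, had 48.4, 46.6, 48.5 and 50.8 CPM in untreated and 52.0, 52.9, 54.4 and 55.5 CPM in treated libraries. The groups lay next to each other without overlap. The means were 48.6 ± 1.69 and 53.7 ± 1.52 CPM, 1.11-fold higher with TGFβ1 (log2 fold change 0.15, SE 0.050). Slc11a2 encodes DMT1, which moves ferrous iron out of the endosome. Its libraries had 49.3, 51.3, 53.1 and 54.3 CPM without and 60.3, 58.9, 57.1 and 56.7 CPM with TGFβ1, again without overlap. It was 1.12-fold higher, with a log2 fold change of 0.16 (SE 0.0504). With scaling to total counts alone, neither gene was called, and the log2 fold changes were 0.08 for Tfrc and 0.10 for Slc11a2. Without the filter on low counts Tfrc had 0.12 and was not called either.

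The subunits of ferritin parted. Fth1, the heavy chain with ferroxidase activity, had 792, 848, 788 and 771 CPM in untreated and 538, 564, 572 and 603 CPM in treated libraries. Every treated library was below every untreated one. The means were 799.8 ± 33.3 and 569 ± 26.7 CPM, 1.41-fold lower with TGFβ1 (log2 fold change -0.49, SE 0.0466). Ftl1, the light chain, had 342, 329, 333 and 337 CPM without and 308, 316, 346 and 329 CPM with TGFβ1. These groups overlapped, with a log2 fold change of -0.05 (SE 0.0440), the only member not called. With scaling to total counts alone the log2 fold change was -0.11 and Ftl1 was called, while that of Fth1 was -0.56.

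The ratio of Fth1 to Ftl1 counts was 2.29 to 2.57 in untreated and 1.65 to 1.83 in treated libraries. The ratio was thus lower in all 4 treated libraries, and it does not depend on how libraries were scaled. Both chains together took 0.116% of all counts without and 0.0872% with TGFβ1. Ftl1 shares 42.3% of its 75-base stretches, the read length, with 6 other genes on the same strand, mostly with Ftl1-ps1, which had 1 to 13 counts. Ftl1 also shares 21.2% with Gm10252 and Gm47428 on the opposite strand, which had at most 1 count per library. Its level is uncertain to the extent that the counting step left out or divided reads with several positions. For Fth1 the share was 0.882% on the same strand and 0 on the opposite strand.

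Both members that act in export, Slc40a1 and Cp, were lower with TGFβ1. Slc40a1 encodes ferroportin, the only known exporter of iron from cells. It had 12.9, 13.6, 14.0 and 14.5 CPM in untreated and 4.60, 4.04, 4.72 and 4.58 CPM in treated libraries. The lowest untreated library lay well above the highest treated one. The means were 13.7 ± 0.656 and 4.49 ± 0.303 CPM, 3.06-fold lower (log2 fold change -1.61, SE 0.102). Cp encodes ceruloplasmin, a copper ferroxidase that oxidizes exported iron for binding to transferrin. It had 62.5, 69.3, 66.5 and 71.0 CPM without and 19.9, 18.5, 18.01 and 19.0 CPM with TGFβ1. This was 3.57-fold lower without overlap, with a log2 fold change of -1.84 (SE 0.0625). Trf, Cp and Slc40a1 had the 3 largest differences among the 10 genes.

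The ratio of Tfrc to Slc40a1 counts, an uptake gene to an export gene, was 3.54 ± 0.145 in untreated and 12.0 ± 0.800 in treated libraries (SD, n = 4 each). The difference in this ratio came mostly from Slc40a1, since Tfrc was only 1.11-fold higher. Macrophages that recycle red cells are rich in ferroportin and heme oxygenase. Of 7 macrophage markers, Ptprc, Adgre1, Spic and Vsig4 had at most 3 counts in every library, while the list summed to 6.12 to 8.30 CPM in untreated and 16.5 to 19.0 CPM in treated libraries. Most of that sum was Cd68, a lysosomal protein, with means of 6.96 and 15.9 CPM. Csf1r, a receptor of the macrophage lineage, had means of 0.278 and 1.38 CPM, and Lyz2 had 0.0818 and 0.526 CPM. The part of these genes in the values of Slc40a1 and Hmox1 was not tested.

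Hmox1 encodes heme oxygenase 1, which opens the heme ring and sets iron free. It had 153.5, 156, 161 and 162 CPM in untreated and 274, 296, 288 and 269.8 CPM in treated libraries. All treated libraries were above all untreated ones. The means were 158 ± 4.13 and 282 ± 12.3 CPM, 1.78-fold higher (log2 fold change 0.83, SE 0.0438), the largest difference upward among the 10 genes. Of 6 erythroid markers, the globin genes Hba-a1, Hbb-bs and Hbb-bt had at most 3 counts in every library.

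The genes of the sensors differed little and in opposite directions. Aco1 encodes IRP1, which is an aconitase while it holds an iron-sulfur cluster. It had 54.5, 59.5, 57.3 and 56.2 CPM without and 52.1, 55.2, 50.9 and 50.5 CPM with TGFβ1. The groups overlapped in 1 treated library, and the log2 fold change of -0.13 (SE 0.0518) was no longer called without untreated library 2 (-0.11), treated library 3 (-0.12) or treated library 4 (-0.11). Ireb2 encodes IRP2, which is degraded when iron is plentiful. It had 189, 188, 196 and 207 CPM without and 224, 227.5, 216 and 213 CPM with TGFβ1. This was 1.13-fold higher without overlap (log2 fold change 0.17, SE 0.0443).

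**Figure D3:**
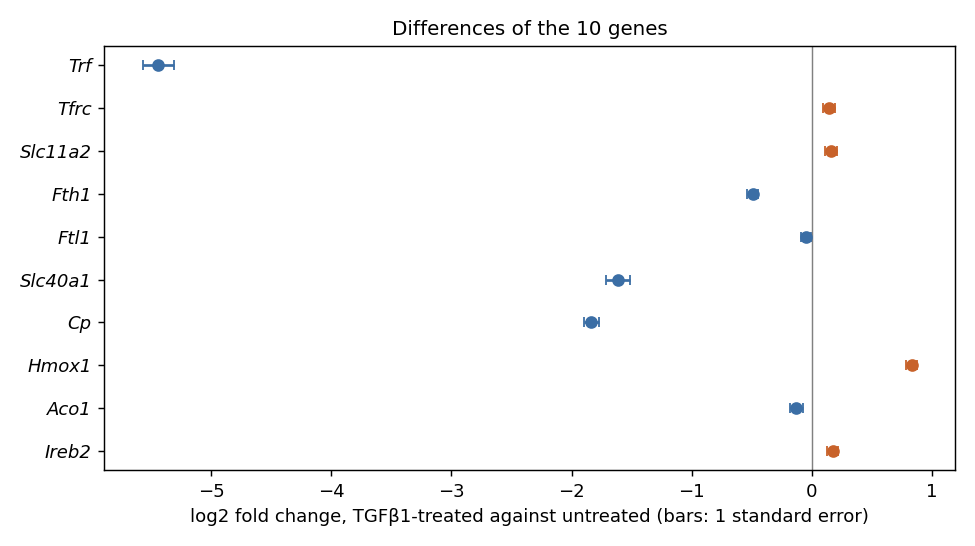
Log2 fold change of each gene, TGFβ1-treated against untreated, with 1 standard error from edgeR, in the order of their roles. Trf stands apart at -5.44, Slc40a1 and Cp lie at -1.61 and -1.84, and Tfrc, Slc11a2, Ftl1, Aco1 and Ireb2 lie within 0.2 of 0.

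Levels can be compared between genes only per length, as CPM per kilobase of exon (RPKM). The length was that of all annotated exons of a gene merged. This was 3469 bases in 2 merged exons for Fth1, 1340 bases for Ftl1 and 1751 bases for Hmox1. Where the transcripts present are shorter than the merged exons, RPKM is too low. Their lengths were not measured, so the order between genes, that of Fth1 above all, is uncertain. In untreated SV-LECs the ferritin chains were highest, with 250.3 ± 4.18 RPKM for Ftl1 and 230.6 ± 9.61 RPKM for Fth1. Hmox1 followed with 90.4 ± 2.36, Trf with 22.7 ± 0.786, Ireb2 with 20.6 ± 0.904 and Aco1 with 12.7 ± 0.468 RPKM. On these lengths, transferrin RNA in untreated cells was above that of its receptor Tfrc, which had 7.85 ± 0.273 RPKM. Slc11a2, with 8.19 ± 0.340 RPKM, did not differ from Tfrc beyond this spread. Cp had 7.04 ± 0.386 and Slc40a1 1.53 ± 0.0729 RPKM. With TGFβ1, Trf moved from the fourth place to the ninth, at 0.523 ± 0.0865 RPKM, within the spread of Slc40a1 at 0.498 ± 0.0337 RPKM. Hmox1 reached 161 ± 7.05 RPKM, beside 164 ± 7.69 RPKM for Fth1. That nearness depends on the merged length of Fth1.

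Genes with a pattern most like that of Trf were ranked by Pearson's r of log2 CPM over the 8 libraries. Aurkb, a mitotic kinase, and Podxl, a sialomucin of the cell surface, led with r = 0.9997 each. Both were lower with TGFβ1, from 114 to 25.1 CPM for Aurkb and from 90.4 to 10.5 CPM for Podxl. The 8 points form 2 groups, and r mainly reflects the gap between them.

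The rest of iron and heme metabolism was taken from 11 lists with 105 further genes. Of these, 91 passed the filter, 27 rose and 45 fell at an FDR under 0.05, and 19 were not called. This is 79.1% called against 75.6% of all genes, a share near the background. The counts of each list below stand beside the same background, 37.6% of all genes called higher and 38.0% lower. Their median log2 fold change was -0.09 and their median absolute change 0.35. The 14 genes without a test included the hormone hepcidin (Hamp, 0 to 1 counts per library), its coreceptor Hjv (0 in every library), the erythroid heme enzyme Alas2 (0) and mitochondrial ferritin, Ftmt (0). A count of 0 allows up to 3 counts per library, that is 0.113 to 0.162 CPM, for counting error only.

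**Figure D4:**
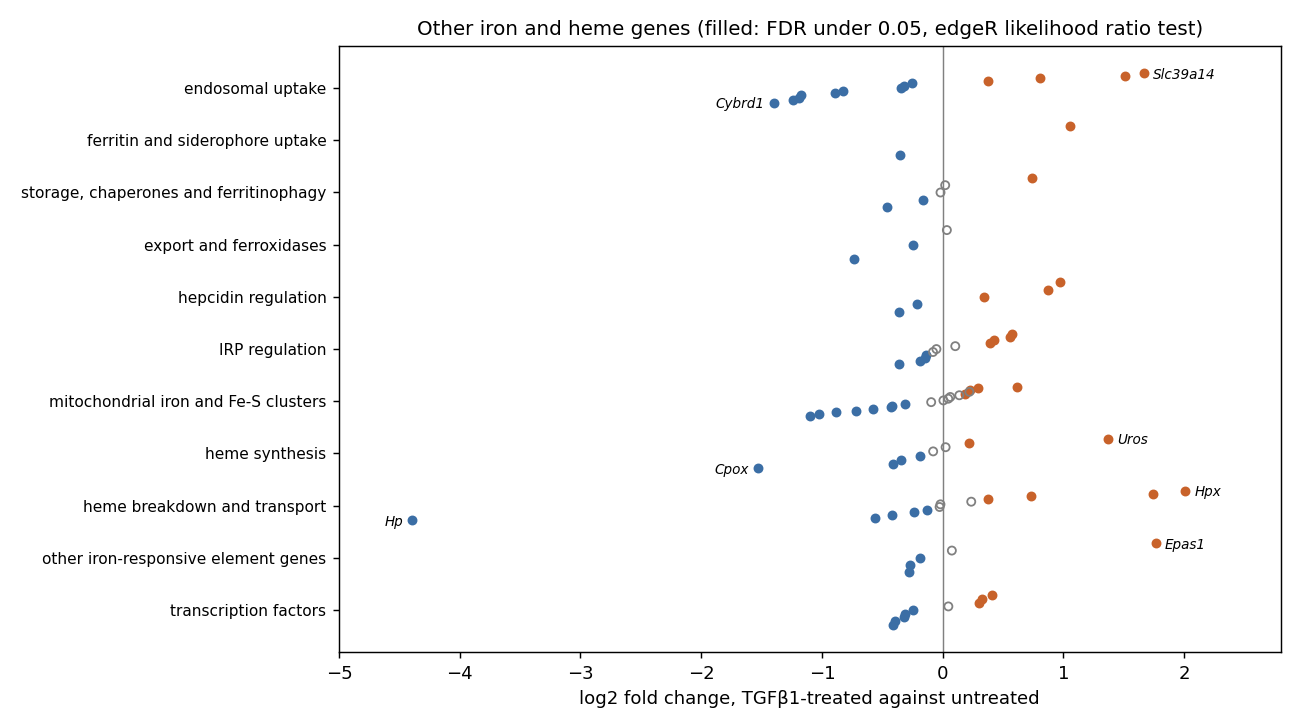
Log2 fold change, TGFβ1-treated against untreated, of the 91 tested genes in 11 lists of iron and heme metabolism, each point 1 gene (orange rose, blue fell, open not called). Hp lies farthest to the left at -4.39 and Hpx farthest to the right at 2.01.

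All 13 genes of endosomal and cell surface uptake were called, 4 higher and 9 lower, where 75.6% of all genes were called. The genes of the STEAP family moved in different directions. Steap3, the reductase of the transferrin cycle, rose from 16.5 to 47.0 CPM (log2 fold change 1.51, SE 0.0632). Steap1, Steap2 and Steap4 fell by 1.17, 0.82 and 1.24 on the log2 scale. Cybrd1, a reductase of the gut brush border, fell by 1.40 (SE 0.247) from a low level. It had 31 to 49 counts per library without and 8 to 25 with TGFβ1. The metal transporters Slc39a14 (ZIP14) and Slc39a8 (ZIP8), which also carry iron that is not bound to transferrin, moved apart too. Slc39a14 had 50.0 to 52.1 CPM in untreated and 151 to 173 CPM in treated libraries and rose by a log2 fold change of 1.67 (SE 0.0556). Slc39a8 fell from 52.7 to 23.1 CPM (log2 fold change -1.19). Hfe, which binds the transferrin receptor, fell by 0.89 on the log2 scale. Tfr2, the second receptor, had only 4 to 13 counts without and 10 to 19 with TGFβ1 and overlapping groups. Its log2 fold change of 0.80 had an FDR of 0.0158 with edgeR's likelihood ratio test and 0.0767 with DESeq2. Its FDR was 0.0875 without untreated library 1, 0.0583 without untreated library 4 and 0.0617 without treated library 1 in the same edgeR test.

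Of 6 genes for uptake of ferritin and siderophores 2 were tested. Slc22a17, a receptor for lipocalin 2, rose by a log2 fold change of 1.05. Lcn2, lipocalin 2 itself, fell by 0.35 on the log2 scale, with an edgeR likelihood ratio FDR of 0.0223 that became 0.129 without untreated library 2, 0.0634 without treated library 2 and 0.0935 without treated library 4. Among 5 tested genes of storage, 1 rose and 2 fell. Herc2, a ubiquitin ligase for the ferritin receptor NCOA4, rose by 0.74 on the log2 scale. Ncoa4, which delivers ferritin to lysosomes, fell by 0.16, and Pcbp2, an iron chaperone, fell by 0.46. In export, Heph, a membrane ferroxidase related to ceruloplasmin, fell from 1.99 to 1.20 CPM (log2 fold change -0.73, SE 0.195). Its relative Hephl1 had too few counts for the test, 0 to 4 without and 9 to 22 with TGFβ1, so that all treated libraries were above the untreated ones. App, which has been linked to ferroportin at the membrane, had a log2 fold change of 0.04 and was not called.

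All 5 tested genes of hepcidin regulation were called, 3 higher and 2 lower, where 75.6% of all genes were called. Bmp6, the ligand that induces hepcidin in liver, rose from 0.822 to 1.61 CPM (log2 fold change 0.97), and Bmper, a BMP-binding protein, rose from 162 to 298 CPM (log2 fold change 0.87). Of 11 genes that act on IRP1 and IRP2, 4 rose and 4 fell. Rbck1 (HOIL-1), a ubiquitin ligase subunit, and Glrx5, a glutaredoxin that hands on iron-sulfur clusters, rose by log2 fold changes of 0.56 and 0.57, and Fbxl5, the iron-sensing ligase subunit for IRP2, fell by 0.36. Nubp1, of cluster assembly in the cytosol, fell by 0.14 and had an edgeR likelihood ratio FDR of 0.0530 without untreated library 3.

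In mitochondria, 4 of 18 tested genes rose and 8 fell. Of those that rose, Bola3 (log2 fold change 0.30) was not called without treated library 2 or 3, with edgeR likelihood ratio FDRs of 0.0581 and 0.0597, and neither Bola3 nor Fdxr (0.23) was called with total counts. Slc25a37 (mitoferrin 1), an importer of iron, rose by 0.62 on the log2 scale. Of the genes of iron-sulfur cluster assembly, Lyrm4 fell by 1.02 and the chaperone Hspa9 by 0.89 on the log2 scale. The carrier Sfxn1 fell by 0.72. Nfs1, the desulfurase that supplies sulfur, is in the list of IRP regulation and rose by 0.42.

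Of 8 tested genes of heme synthesis 2 rose and 4 fell. Cpox, coproporphyrinogen oxidase, had 129 to 135 CPM in untreated and 43.0 to 48.5 CPM in treated libraries. It fell by 1.53 on the log2 scale (SE 0.0490, FDR 1.48e-211 with edgeR's likelihood ratio test). Uros, uroporphyrinogen III synthase, rose from 4.46 to 11.6 CPM (log2 fold change 1.37). Alas1, the first enzyme of the pathway, rose by 0.22, and Fech, which inserts the iron, fell by 0.18.

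In heme breakdown and transport, 4 of 12 tested genes rose and 5 fell. Hp encodes haptoglobin, which binds free hemoglobin. It had 9.64, 10.6, 8.30 and 11.5 CPM in untreated and 0.379, 0.682, 0.443 and 0.388 CPM in treated libraries, with 7 to 14 counts in the latter. All untreated libraries were far above the treated ones, and Hp fell by 4.39 on the log2 scale (SE 0.255). Hpx, hemopexin, which binds free heme, rose from 2 to 9 counts to 12 to 31 counts per library (log2 fold change 2.01, SE 0.378). Lrp1, the receptor for hemopexin with heme and for many other ligands, had 452 to 506 CPM without and 1489 to 1804 CPM with TGFβ1 and rose by 1.74 on the log2 scale (SE 0.0589). Slc46a1, a transporter of heme and folate, rose by 0.74. Blvrb, a biliverdin reductase, fell by 0.56 with overlapping groups. Hmox2, the constitutive heme oxygenase, fell by 0.13 with overlapping groups and an edgeR likelihood ratio FDR of 0.0442. It was not called with DESeq2 (FDR 0.0660), with DESeq2 size factors in edgeR (0.0611), with 1 CPM in at least 4 libraries (0.0720) or with the replicate block (0.0924). Without untreated library 3 or 4 or treated library 1, 3 or 4 its edgeR FDR was 0.0769 to 0.144. Blvra, the main biliverdin reductase, had a log2 fold change of -0.02 and was not called.

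Of 5 other messengers known for an IRE, 1 rose and 3 fell. Among the latter, Cdc14a, a phosphatase, fell by 0.28 on the log2 scale with an edgeR likelihood ratio FDR of 0.0391 and was not called with DESeq2 (FDR 0.110). Nor was it called without untreated library 1, 3 or 4 or treated library 2, 3 or 4, where the edgeR FDR was 0.0543 to 0.116. Epas1 (HIF-2α), a hypoxia factor, rose from 1.45 to 4.95 CPM (log2 fold change 1.77, SE 0.202). Of 9 transcription factors known to act on the members, 3 rose and 5 fell, all by less than 0.5 on the log2 scale. For Hmox1 these are its activator Nfe2l2 (NRF2), which fell by 0.32, the NRF2 inhibitor Keap1, which fell by 0.31, and the repressor Bach1, which rose by 0.41. Hif1a fell by 0.41. No relation between these genes and the members was tested.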

How the data were processed

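RNA of untreated and TGFβ1-treated SV-LECs (4 libraries each) was sequenced from stranded poly(A) libraries with single-end reads of 75 bases. The submitters' processing notes name bcl2fastq 2.20.0.422, STAR 2.7.3a, featureCounts 1.5.1 and GRCm38. Counting settings, use of strand and the annotation release are not given in the sources used here. The authors deposited raw counts per gene, without normalization. Counts of all genes were filtered with filterByExpr, scaled by TMM and compared with glmFit and glmLRT in edgeR 4.0.16 (R 4.3.3), with Benjamini-Hochberg adjustment over 13818 genes. The study's methods name edgeR's likelihood ratio test, while the filter and the scaling were chosen here. The alternatives were edgeR's quasi-likelihood test, DESeq2 1.42.0, its size factors in edgeR, total counts, no filter, 1 CPM in at least 4 libraries, a replicate block and each library left out.

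Members and lists were chosen with earlier results of these data known. The text names the members, Gm20425, the genes of the other lists with an absolute log2 fold change of at least 0.5 and an FDR under 0.05, and the 3 genes most like Trf, except for some genes that are not reported here. Other genes of the lists and markers, such as Lcn2, Hephl1, App, Cdc14a, Hmox2, Nubp1, Bola3, Fdxr, Ncoa4, Pcbp2, Fbxl5, Nfs1, Alas1, Fech, Blvra, the regulators of Hmox1 and Hif1a, were named after their values were seen. Positions, exon lengths and sequences came from GENCODE M21, which matched 55230 genes. In simulated data with 200 of 13818 genes changed, the likelihood ratio test recovered 187 and called 23 others, and the quasi-likelihood test recovered 187 and called 9 others. The 23 were a larger share of the calls than the threshold of 0.05. Far fewer genes were changed than were called in the data, and by more than Tfrc, Slc11a2 or Aco1 differed. The simulation therefore does not check such small differences, or the scaling. Within groups, chi-square per degree of freedom of library pairs was 2.37 to 7.84, so no library was counted as a duplicate.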

Additional observations from a re-analysis of the deposited data

Results flagged for a closer look

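Blvrb, a biliverdin reductase, was set apart by 1 library. Untreated library 4 had 10.2 CPM, while the next untreated library had 14.7 CPM and the highest 14.9 CPM, so that the gap was 0.944 of the group's range, above Dixon's limit of 0.829 for 4 samples. Of 80 groups checked over 40 genes this was the only one, and chance flags about 1 in 20 groups.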

How the results depend on the processing

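Across the 15 alternatives, 8 to 9 of the 10 members and 70 to 75 of the other iron and heme genes were called, and 9852 to 12140 of all genes. No member and no called gene of the lists changed direction in any of them. The log2 fold change was -5.52 to -5.35 for Trf, -1.90 to -1.81 for Cp, -1.68 to -1.57 for Slc40a1, -0.56 to -0.46 for Fth1 and 0.77 to 0.85 for Hmox1. Calls changed for 4 members: Tfrc was not called with total counts (0.08) or without a filter (0.12), Slc11a2 not with total counts (0.10), Aco1 not without untreated library 2 or treated libraries 3 or 4, and Ftl1 was called with total counts (-0.11). Total counts shifted the median of all genes by -0.07. Leaving out 1 library lost 1 to 3 of the 72 calls in the lists. The cause was not tested.

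With the replicate block, 9 members, 71 genes of the lists and 10152 of all genes were called. The correlations of deviations between libraries of the same number were -0.193 to -0.0336, and no source pairs them. Gm20425 had no values under any setting. Technical replicates and a counting step with unstated settings limit all values, those of Trf and Ftl1 most, because of shared sequence.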
